A study of Mus musculus with 6 samples.

Results

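Genes of the proteases that cut extracellular matrix, of their inhibitors and of the enzymes that fold and crosslink collagen were examined in 6 mouse livers profiled by RNA-seq. Members were all genes of the deposited table whose symbol named an MMP, a TIMP, an ADAM, an ADAMTS or ADAMTS-like protein, a lysyl oxidase, a prolyl 4-hydroxylase alpha subunit, a lysyl hydroxylase, the collagen chaperone Serpinh1 or the procollagen proteinase Bmp1. This gave 78 of 17441 genes, of which 54 had enough reads to be tested. The livers came from 3 mice labelled as whole-body, tamoxifen-inducible knockouts of Nek7 (iKO) and 3 mice labelled wild type (WT), and all 6 were taken 10 days after tamoxifen. Nek7 encodes a mitotic kinase that is also known to help the NLRP3 inflammasome assemble. The promoter that drives the recombinase, the strain, the age and the sex are not given in the labels. The labels number the samples within each group and say no more of the animals, so p-values measure the spread between these samples.

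Matrix turnover rests on secreted and membrane-bound metalloproteinases, which are made as inactive proenzymes and are held in check by TIMPs. ADAM proteins mostly shed proteins from the cell surface, while the secreted ADAMTS proteases process procollagen, proteoglycans and von Willebrand factor. New collagen chains are hydroxylated on proline and lysine inside the cell and are crosslinked outside it by lysyl oxidases. In liver, stellate cells and portal fibroblasts are known as main producers of fibrillar matrix.

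Library totals lay between 18139500 and 19912000 expected counts. Levels in CPM are counts relative to library size after TMM scaling, with TMM factors between 0.780 (iKO 1) and 1.18 (WT 2). Nek7 stood at 50.2, 32.8 and 31.0 CPM in the livers labelled iKO, against 55.5, 40.5 and 36.3 CPM in WT livers (log2 fold change -0.22, SE 0.23, adjusted p = 0.541 with edgeR). The gene total therefore does not set the groups apart, and it does not show whether a deleted exon is missing. The libraries labelled WT 2 and WT 3 gave 0 counts of the Y-linked genes Ddx3y and Kdm5d together, while the other 4 libraries gave between 573 and 1113. Results are therefore also given for the 4 libraries with Y-linked reads. The hepatocyte markers summed to between 111552 and 128495 CPM in the livers labelled iKO and between 111262 and 124346 CPM in WT livers. Alb alone had between 66386 and 91157 CPM, so these sums say little of the other markers. Of 9 tested markers, 8 were not called and Hnf4a was called higher (log2 fold change 0.79, adjusted p = 0.0414 by edgeR).

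Lysyl oxidase-like 4 stood apart from all other members, at 3.73% of its WT level in the livers labelled iKO. The tissue inhibitors Timp2 and Timp3, the proteases Adamts1, Adamts2, Adamts13 and Mmp19 and the crosslinking enzymes Loxl1 and Loxl2 were also lower, at between 34.9% (Adamts13) and 59.7% (Mmp19) of WT. The membrane-type metalloproteinases Mmp15 and Mmp24 and the prolyl hydroxylase subunit P4ha1 were higher, at between 176% (P4ha1) and 191% (Mmp24) of WT. In all, 9 of the 54 tested members were called lower and 3 higher at an adjusted p under 0.05 (edgeR's quasi-likelihood test, adjusted over all 13160 tested genes). That is 16.7% lower and 5.56% higher, where 8.07% of all tested genes were called lower and 7.31% higher. In either direction 22.2% of the tested members were called, against 15.4% of all tested genes. The median log2 fold change was -0.56 over the tested members and -0.02 over all tested genes. A negative value was found for 43 of the 54 members, against 6798 of the 13160 tested genes. With a term for Y-linked reads, described below, 30 of the 54 members had a negative value, and the member median was -0.04.

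**Figure D1:**
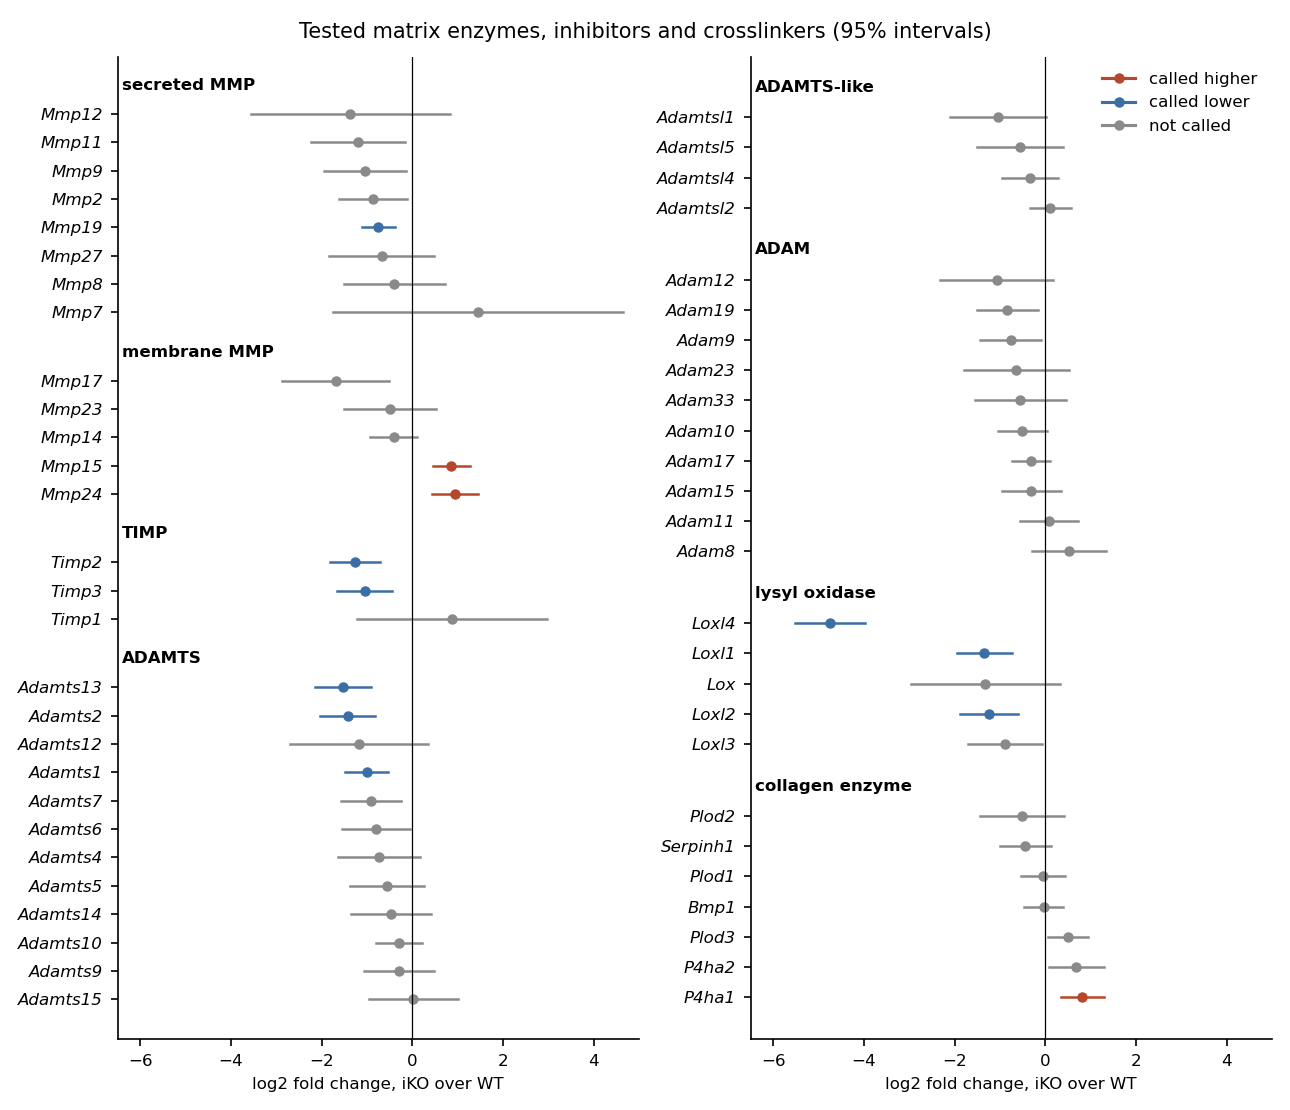
Log2 fold change, livers labelled iKO over WT livers (x axis), of each of the 54 tested members by role, with its 95% interval. Blue marks the 9 members called lower, red the 3 called higher and grey the 42 not called. Loxl4 lies at -4.74, and the called member next to it, Adamts13, at -1.52.

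The CPM values of the groups did not overlap for 18 of the 54 tested members, or 33.3%, against 39.0% of all tested genes. Separation of the groups as such was therefore not more frequent among the members. Overlap is given in CPM unless TPM is named, and for some members it differs in TPM. The livers labelled iKO were lower in 15 of these 18 members, and in 2530 of the 5134 tested genes without overlap. That is 15 of the 54 tested members, against 19.2% of all tested genes. All 12 called members were among the 18. WT 1 was the WT liver nearest to the livers labelled iKO for 10 of the 12 called members. The called member nearest to the threshold was Timp3 (adjusted p = 0.0332), and the uncalled member nearest to it was Mmp17 (adjusted p = 0.0563, edgeR).

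Lysyl oxidases oxidise lysine side chains of collagen and elastin, the step that lets crosslinks form. All 5 genes of the family were tested, 3 were called lower, and all 5 log2 fold changes were negative, between -4.74 and -0.89. Loxl4 had 0.799, 0.590 and 1.04 CPM in the livers labelled iKO, against 14.0, 22.3 and 29.4 CPM in WT livers. In expected counts this was 12, 11 and 20 in the livers labelled iKO, against 263, 503 and 608 in WT livers. Each liver labelled iKO was far below the lowest WT liver, and the log2 fold change was -4.74 (SE 0.35, 95% interval -5.52 to -3.97, adjusted p = 0.000191 by edgeR). Against WT 1 alone it was -4.09 (95% interval -4.98 to -3.20, adjusted p = 0.000603), and whichever library was left out Loxl4 was called (adjusted p at most 0.00121).

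Loxl1, known for its part in elastic fibre assembly, had 2.13, 1.88 and 2.13 CPM in the livers labelled iKO, against 3.98, 5.19 and 6.38 CPM in WT livers (log2 fold change -1.34, SE 0.27, adjusted p = 0.0142 by edgeR). Loxl2, which crosslinks collagen IV, had 3.53, 5.25 and 4.93 CPM in the livers labelled iKO, against 6.96, 11.7 and 14.0 CPM in WT livers (log2 fold change -1.25, SE 0.28, adjusted p = 0.0209 by edgeR). In both genes the groups did not overlap and WT 1 was the lowest WT liver. The Loxl1 call was lost without WT 2 or WT 3 (adjusted p up to 0.0638), and the Loxl2 call without iKO 3, WT 2 or WT 3 (adjusted p up to 0.0830). Loxl2 had expected counts that were not whole in any library, a sign of reads shared with other transcripts. This held for 3849 of the 13160 tested genes. The Loxl2 counts lay close to whole numbers, such as 53.01 in iKO 1 and 289.05 in WT 3, and the effect on its level was not tested. Loxl3 was not called, with 1.40, 1.66 and 1.40 CPM in the livers labelled iKO and 1.54, 3.33 and 3.38 CPM in WT livers (adjusted p = 0.125 by edgeR). Here iKO 2 lay above WT 1, and the gene was called lower once WT 1 was left out (adjusted p = 0.0408). Lox, the founding member of the family, was scarce, with 0, 0.375 and 0.726 CPM in the livers labelled iKO and 0.584, 1.33 and 0.967 CPM in WT livers (adjusted p = 0.241 by edgeR). The 0 in iKO 1 allows up to 0.20 CPM (3 counts, counting error only), and the groups overlapped.

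Per transcript length (TPM), Loxl4 had the highest mean level of the 5 lysyl oxidases in WT livers and the second lowest, above Lox, in the livers labelled iKO. It stood at 0.17, 0.18 and 0.33 TPM in the livers labelled iKO, against 4.20, 8.89 and 9.97 TPM in WT livers. The summed level of the 5 genes was 3.21 ± 1.01 TPM in the livers labelled iKO and 16.3 ± 6.22 TPM in WT livers (SD, n = 3 each). The ratio of Loxl4 to Loxl2 within a library does not depend on the scaling between libraries. It was 0.224, 0.107 and 0.205 in the livers labelled iKO and 1.94, 1.86 and 2.03 in WT livers, a pair chosen after its values were seen. In this ratio WT 1 lay between WT 2 and WT 3, whereas in level it was the lowest WT liver.

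**Figure D2:**
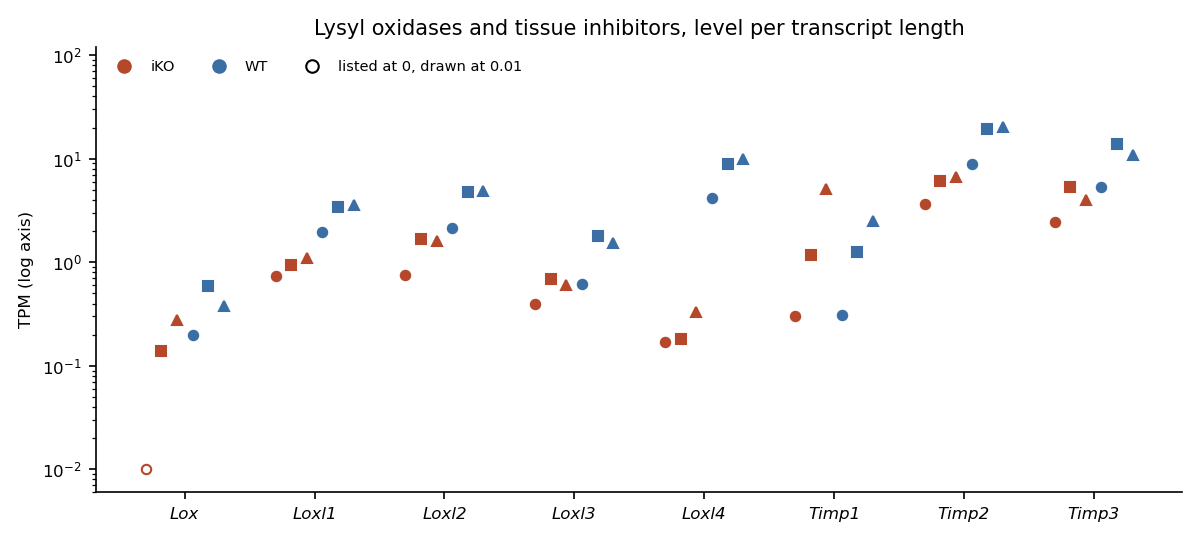
Level per transcript length (TPM, log axis) of the 5 lysyl oxidases and 3 tested TIMPs in each liver, those labelled iKO in red and WT in blue, with circles, squares and triangles for livers 1, 2 and 3. The open symbol is a value listed at 0 and drawn at 0.01. Loxl4 is at 0.33 TPM or less in the livers labelled iKO and at 4.20 TPM or more in WT livers, while Timp1 overlaps between the groups.

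The sequence upstream of Loxl4 is printed because no other member changed as much, beside those of Timp2, the other member called lower whichever library was left out, and of Mmp15 and Mmp24, which were higher. Each is the stretch of 250 bases before the gene's RefSeq start in GRCm38.p6, 5′ to 3′ on the gene's strand. Capitals mark the GC-box letters GGGCGG or, where the match is on the other strand, CCGCCC. The windows are chr19:42612807-42613056 (minus strand) for Loxl4, chr11:118355412-118355661 (minus strand) for Timp2, chr8:95352046-95352295 (plus strand) for Mmp15 and chr2:155775092-155775341 (plus strand) for Mmp24.
Loxl4: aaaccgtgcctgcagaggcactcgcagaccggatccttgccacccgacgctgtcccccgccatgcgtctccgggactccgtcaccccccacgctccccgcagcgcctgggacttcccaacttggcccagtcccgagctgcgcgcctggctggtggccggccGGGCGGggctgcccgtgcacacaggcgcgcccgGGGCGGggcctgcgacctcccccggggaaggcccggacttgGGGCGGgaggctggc
Timp2: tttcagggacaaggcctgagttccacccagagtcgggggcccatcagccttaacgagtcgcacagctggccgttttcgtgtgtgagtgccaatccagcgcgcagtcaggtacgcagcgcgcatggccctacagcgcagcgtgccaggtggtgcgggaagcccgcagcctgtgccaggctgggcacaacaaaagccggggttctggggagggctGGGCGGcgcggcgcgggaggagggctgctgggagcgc
Mmp15: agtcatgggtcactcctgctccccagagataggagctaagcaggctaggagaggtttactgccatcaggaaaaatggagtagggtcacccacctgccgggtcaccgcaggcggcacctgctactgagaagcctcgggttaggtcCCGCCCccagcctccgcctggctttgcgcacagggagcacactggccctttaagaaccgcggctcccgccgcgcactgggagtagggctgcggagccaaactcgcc
Mmp24: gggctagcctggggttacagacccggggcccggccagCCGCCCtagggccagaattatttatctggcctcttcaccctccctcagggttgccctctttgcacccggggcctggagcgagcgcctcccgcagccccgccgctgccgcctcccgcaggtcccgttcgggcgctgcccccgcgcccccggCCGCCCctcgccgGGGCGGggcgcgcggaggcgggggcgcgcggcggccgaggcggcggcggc

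The GC-box letters, which Sp family factors are known to bind, begin at -89, -56 and -15 in Loxl4, at -37 in Timp2, at -106 in Mmp15 and at -213, -63 and -50 in Mmp24, counted from the RefSeq start. The RefSeq promoter table held 48 of the 78 members and 9 of the 12 called ones, without Loxl1, Loxl2 and Mmp19. A gene was counted when any of its windows held the letters. On either strand GGGCGG was found in 5 of 6 members called lower, in 3 of 3 members called higher and in 69.7% of 33 tested members with a window. The share among 10542 tested genes with a window was 61.4%, so these letters were common in both directions of change and in the background. The AP-1 letters TGANTCA, known from several MMP promoters, were in none of the 9 called members with a window, in 9.09% of tested members and in 5.76% of tested genes. The TATA letters TATAAA were in 1 of the 9, Adamts1, in 12.1% of tested members and in 8.61% of tested genes. The E-box letters CACGTG were in none of the 9, in 9.09% of tested members and in 9.68% of tested genes. A match describes letters in this window and not a site in use.

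TIMPs bind the active site of metalloproteinases and block them. Of 4 genes 3 were tested and 2 were called lower. Timp2, whose product also bridges MMP14 to the proenzyme of MMP2, had 11.5, 13.0 and 14.0 CPM in the livers labelled iKO, against 19.6, 32.6 and 40.0 CPM in WT livers. The groups did not overlap, and the log2 fold change was -1.26 (SE 0.25, 95% interval -1.81 to -0.71, adjusted p = 0.0121 by edgeR). Besides Loxl4, Timp2 was the only one of the 12 called members that was called whichever library was left out (adjusted p at most 0.0494).

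Timp3, which is held in the matrix and also inhibits ADAM17, had 9.99, 14.7 and 10.7 CPM in the livers labelled iKO, against 15.1, 30.3 and 27.7 CPM in WT livers (log2 fold change -1.04, SE 0.27, adjusted p = 0.0332 by edgeR). The groups did not overlap in CPM, but iKO 2 and WT 1 were nearly level. In TPM iKO 2 (5.31) lay just above WT 1 (5.3). The call was lost without iKO 1, iKO 3, WT 2 or WT 3 (adjusted p up to 0.134) and after correction for transcript length (adjusted p = 0.0652). Exons of Timp3 overlap Syn3 on the opposite strand. The use of strand in counting is not given in the sources at hand, and no library gave Timp3 a whole count, so its level is less certain. Timp1, known to be induced in injured liver, had 0.20, 0.590 and 2.49 CPM in the livers labelled iKO and 0.159, 0.488 and 1.16 CPM in WT livers (log2 fold change 0.87, 95% interval -1.22 to 2.96, adjusted p = 0.535 by edgeR). In each group the third liver was the highest, and without iKO 3 the Timp1 value was -0.54.

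Of 13 secreted MMPs, 8 were tested and 1, Mmp19, was called lower, as it was by DESeq2. Mmp19, which cleaves basement membrane proteins, had the highest mean TPM of all MMPs over the 6 livers. It had 47.1, 42.9 and 38.3 CPM in the livers labelled iKO, against 63.2, 75.9 and 75.9 CPM in WT livers (log2 fold change -0.75, SE 0.16, adjusted p = 0.0173 by edgeR). The groups did not overlap, and the call was lost without iKO 2, iKO 3, WT 2 or WT 3 (adjusted p up to 0.106). Exons of Mmp19 overlap Tmem198b on the opposite strand, and no library gave it a whole count, so this level is less certain too.

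The gelatinases and the leukocyte metalloproteinases were scarce and were not called. Mmp2, the gelatinase of mesenchymal cells, had 2.26, 2.79 and 4.36 CPM in the livers labelled iKO and 3.72, 6.66 and 6.86 CPM in WT livers (adjusted p = 0.103 by edgeR). Mmp9, made by neutrophils and macrophages, had 1.6, 1.29 and 2.44 CPM in the livers labelled iKO and 2.02, 3.77 and 5.17 CPM in WT livers (adjusted p = 0.104 by edgeR). Both overlapped between the groups, and both were called lower once WT 1 was left out. The neutrophil collagenase Mmp8 spanned 0.590 to 2.33 CPM in the livers labelled iKO and 1.27 to 2.42 CPM in WT livers. The macrophage elastase Mmp12 had 0, 0.858 and 1.09 CPM in the livers labelled iKO and 0.372, 2.49 and 2.32 CPM in WT livers (adjusted p = 0.353 by edgeR). Mmp11, known from stromal cells of tumours, had 0.333, 0.751 and 1.09 CPM in the livers labelled iKO and 1.12, 1.73 and 2.22 CPM in WT livers, without overlap but not called (adjusted p = 0.107 by edgeR). Mmp13, the main interstitial collagenase of the mouse, gave 2, 5 and 9 expected counts in the livers labelled iKO and 4, 15 and 11 in WT livers, too few for the test.

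Mmp7, matrilysin, an epithelial metalloproteinase, varied more between livers than between groups. It had 1.67, 8.15 and 31.4 CPM in the livers labelled iKO and 1.22, 8.21 and 5.61 CPM in WT livers (log2 fold change 1.45, SE 1.22, 95% interval -1.76 to 4.66, adjusted p = 0.468 by edgeR). The highest value was that of iKO 3, without which the log2 fold change was -0.01. The 8 cholangiocyte markers summed to 91.4, 245 and 443 CPM in the livers labelled iKO and 153, 236 and 184 CPM in WT livers. They were also highest in iKO 3, none of them was at 0 in all 6 libraries, and their part in the Mmp7 values was not tested.

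Membrane-bound MMPs act at the cell surface, where MMP14 is the known activator of the MMP2 proenzyme. Of 7 such genes 5 were tested and 2 were called, both higher. Mmp15, a membrane-type MMP, had 75.6, 83.4 and 83.7 CPM in the livers labelled iKO, against 49.5, 34.5 and 49.3 CPM in WT livers. In CPM the groups did not overlap (log2 fold change 0.86, SE 0.18, 95% interval 0.46 to 1.27, adjusted p = 0.0159 by edgeR), and the call was lost without WT 2 (adjusted p = 0.0802). In TPM they did, with iKO 1 (20.01) below WT 3 (21.12). Mmp24, another membrane-type MMP, had 11.4, 9.76 and 10.3 CPM in the livers labelled iKO, against 3.98, 5.55 and 6.86 CPM in WT livers (log2 fold change 0.93, SE 0.23, adjusted p = 0.0267 by edgeR). In CPM its groups did not overlap either, and the call was lost without iKO 1, iKO 3 or WT 2 (adjusted p up to 0.0895).

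Mmp14 was not called, with 37.1, 38.9 and 56.4 CPM in the livers labelled iKO and 42.9, 65.4 and 67.8 CPM in WT livers (log2 fold change -0.41, 95% interval -0.92 to 0.10, adjusted p = 0.239 by edgeR). Its value was 0.04 in the 4 libraries with Y-linked reads. Mmp17, which is anchored to the membrane by a lipid, had 0.533, 0.161 and 0.311 CPM in the livers labelled iKO and 0.637, 1.2 and 1.35 CPM in WT livers, without overlap (log2 fold change -1.69, SE 0.53, adjusted p = 0.0563 by edgeR). Within a library, the TPM ratio of Mmp15 to Mmp14 was 1.79, 1.88 and 1.30 in the livers labelled iKO and 1.01, 0.464 and 0.640 in WT livers. The TPM ratio of Mmp14 to its inhibitor Timp2 was 3.06, 2.85 and 3.83 in the livers labelled iKO and 2.08, 1.91 and 1.61 in WT livers. Neither ratio overlapped between the groups, and both pairs were chosen after their values were seen. Mmp14 had expected counts that were not whole in any library.

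**Figure D3:**
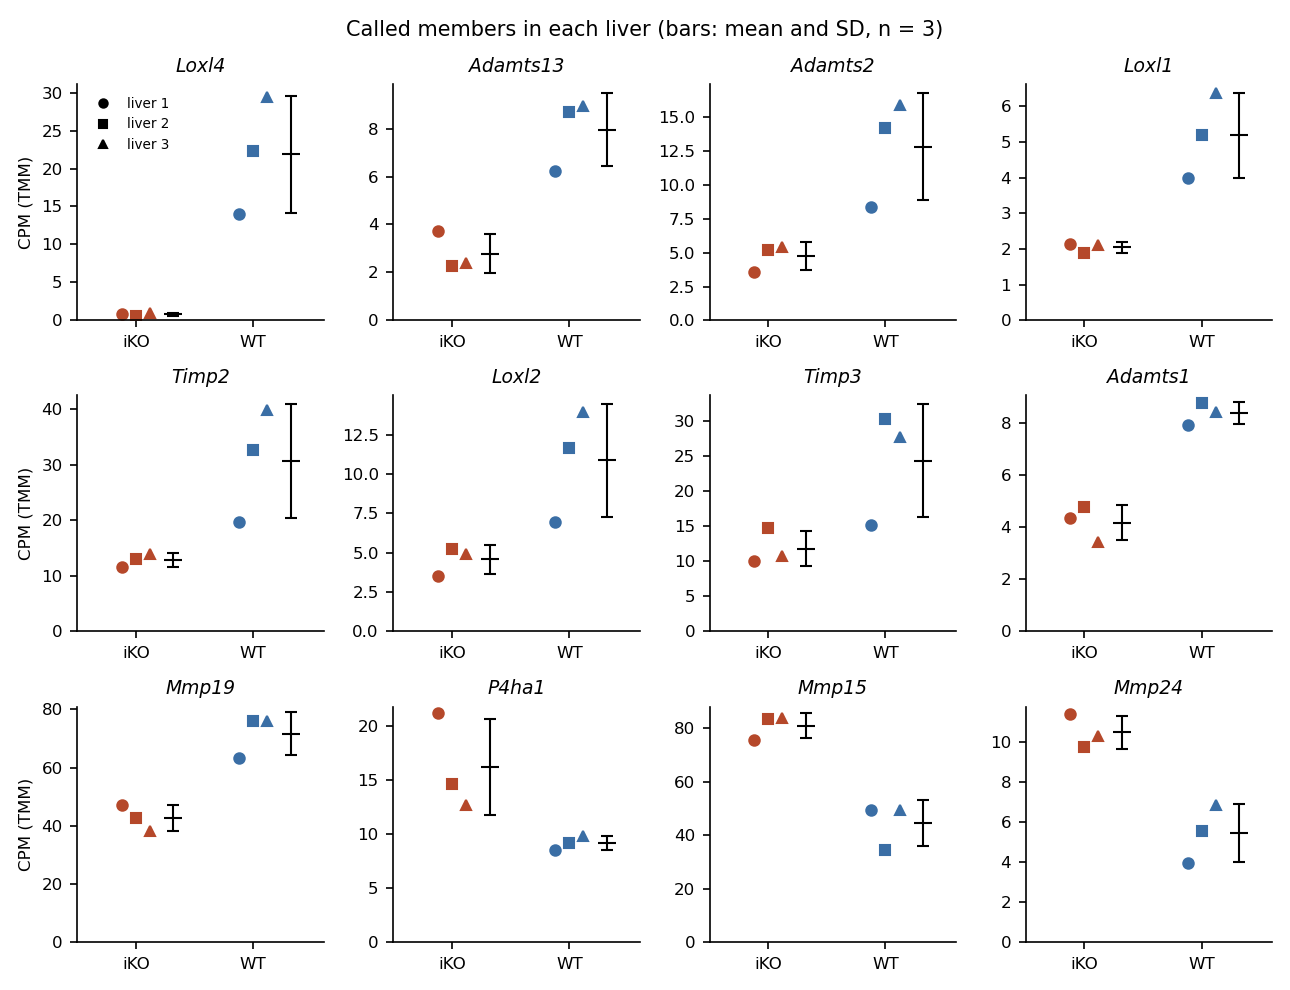
CPM after TMM scaling (y axis from 0) of the 12 called members in each liver, those labelled iKO in red and WT in blue, with black bars for mean and SD (n = 3). The groups overlap in none of the panels, and WT 1 (blue circle) is the WT liver nearest to those labelled iKO in 10 of the 12.

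Mmp15, Mmp24 and P4ha1 were called higher with TMM, RLE and upper-quartile factors alike. Fitted with limma on log2(FPKM + 1), which changes the test, the unit and the scaling together, they had log2 fold changes of 0.65, 0.49 and 0.47, and none of the 3 was called (adjusted p = 0.0562, 0.118 and 0.101). Loxl2 (adjusted p = 0.0545) and Timp3 (0.0632) were not called either, and the other 7 were called lower. Over all genes that fit called 421 higher and 931 lower, where the TMM fit called 962 higher and 1062 lower, and its median over all genes was -0.12. Fold changes on the log2(FPKM + 1) scale understate those of low genes.

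ADAMTS proteases are secreted and bind matrix through thrombospondin repeats. Of 18 listed, 12 were tested, 11 had a negative log2 fold change and 3 were called lower. Adamts13, which cleaves von Willebrand factor and is known to be made in liver mainly by stellate cells, had 3.73, 2.25 and 2.39 CPM in the livers labelled iKO, against 6.21, 8.70 and 8.94 CPM in WT livers (log2 fold change -1.52, SE 0.28, adjusted p = 0.00927 by edgeR). Adamts2, which removes the aminopropeptide of procollagen, had 3.6, 5.20 and 5.45 CPM in the livers labelled iKO, against 8.39, 14.2 and 15.9 CPM in WT livers (log2 fold change -1.43, SE 0.27, adjusted p = 0.0112 by edgeR). In both genes the groups did not overlap, and without WT 2 both calls were lost (adjusted p = 0.0512 for Adamts13 and 0.0507 for Adamts2). Expected counts of both were not whole in any library.

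Adamts1, which cuts the proteoglycans versican and aggrecan, had 4.33, 4.77 and 3.42 CPM in the livers labelled iKO, against 7.91, 8.75 and 8.41 CPM in WT livers (log2 fold change -1.0, SE 0.21, adjusted p = 0.0164 by edgeR). Its WT values lay close together, WT 1 included, and the call was lost without iKO 3, WT 2 or WT 3 (adjusted p up to 0.0932). Adamts7 had 4.53, 4.72 and 9.28 CPM in the livers labelled iKO and 9.72, 14.2 and 11.2 CPM in WT livers, without overlap but not called (adjusted p = 0.0625 by edgeR), while DESeq2 called it lower. Adamts10, the uncalled member of the family with the highest CPM, had 7.53, 7.83 and 11.2 CPM in the livers labelled iKO and 9.08, 13.5 and 10.1 CPM in WT livers (adjusted p = 0.384 by edgeR). Adamts14, known like ADAMTS2 to process procollagen, had 1.67, 1.5 and 1.87 CPM in the livers labelled iKO and 1.12, 2.84 and 3.00 CPM in WT livers, with a log2 fold change of -0.47 (95% interval -1.36 to 0.42).

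ADAMTS-like proteins lack the protease domain. Of 5 listed, 4 were tested and 0 were called by edgeR or by DESeq2, with 0 at an unadjusted p under 0.05. Adamtsl2, which binds fibrillin, had 12.5, 12.7 and 11.9 CPM in the livers labelled iKO and 9.98, 14.9 and 9.42 CPM in WT livers, and the 95% interval of its log2 fold change was -0.34 to 0.57. Adamtsl3, below the filter for the test, gave 2, 3 and 2 expected counts in the livers labelled iKO and 7, 19 and 19 in WT livers. It was called lower when the filter was dropped.

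Of 18 ADAMs, 10 were tested and 0 were called by edgeR or by DESeq2, and 2 (Adam9 and Adam19) had an unadjusted p under 0.05. Adam10, the sheddase of Notch receptors, had 11.9, 23.1 and 20.0 CPM in the livers labelled iKO and 26.1, 30.4 and 21.6 CPM in WT livers (log2 fold change -0.50, 95% interval -1.05 to 0.04, adjusted p = 0.184 by edgeR). Adam17, which sheds TNF, had 11.1, 15.5 and 13.6 CPM in the livers labelled iKO and 16.9, 19.2 and 14.2 CPM in WT livers (log2 fold change -0.32, 95% interval -0.74 to 0.10, adjusted p = 0.259 by edgeR). Both overlapped between the groups, and the intervals do not show that the levels were alike.

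Adam9 had 24.7, 49.4 and 22.9 CPM in the livers labelled iKO and 62.1, 59.4 and 43.4 CPM in WT livers, so that iKO 2 lay above WT 3 (adjusted p = 0.113 by edgeR). Without iKO 2 it was called lower (log2 fold change -1.18, adjusted p = 0.0182). Adam19 had 1.47, 1.66 and 1.56 CPM in the livers labelled iKO and 2.39, 2.53 and 3.48 CPM in WT livers, without overlap but not called (adjusted p = 0.0837 by edgeR). Adam11, a member without protease activity, had the highest mean CPM among the ADAMs, with 31.4, 52.1 and 51.9 CPM in the livers labelled iKO and 39.9, 59.4 and 28.8 CPM in WT livers (adjusted p = 0.873 by edgeR). Expected counts of Adam11, Adam17 and Adam19 were not whole in any library.

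Of 8 genes of collagen-modifying enzymes, the chaperone Serpinh1 and Bmp1, 7 were tested and 1 was called, P4ha1, as higher. P4ha1, a catalytic subunit of collagen prolyl 4-hydroxylase, had 21.2, 14.7 and 12.7 CPM in the livers labelled iKO, against 8.55, 9.19 and 9.81 CPM in WT livers (log2 fold change 0.81, SE 0.21, adjusted p = 0.0318 by edgeR). The groups did not overlap, iKO 1 was the highest, and the call was lost without iKO 1, WT 1, WT 2 or WT 3 (adjusted p up to 0.111). The related subunit P4ha2 had 5.06, 7.24 and 8.56 CPM in the livers labelled iKO and 3.50, 4.08 and 5.41 CPM in WT livers (adjusted p = 0.111 by edgeR). Plod3, a lysyl hydroxylase, had 40.4, 26.0 and 36.4 CPM in the livers labelled iKO and 21.1, 23.4 and 28.0 CPM in WT livers (adjusted p = 0.106 by edgeR). Both overlapped between the groups, and Plod3 was called higher once iKO 2 was left out.

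Bmp1, which removes the carboxypropeptide of procollagen, had the highest mean TPM of the members, at 52.8 ± 3.74 TPM in the livers labelled iKO and 68.5 ± 8.83 TPM in WT livers (SD, n = 3 each). In CPM it stood at 156, 122 and 113 in the livers labelled iKO and 132, 118 and 151 in WT livers, with a log2 fold change of -0.04 (95% interval -0.47 to 0.39) that became 0.15 after correction for transcript length. Plod1, another lysyl hydroxylase, had 70.7, 43.2 and 42.5 CPM in the livers labelled iKO and 49.5, 50.7 and 60.7 CPM in WT livers (adjusted p = 0.914 by edgeR). Serpinh1, the collagen chaperone also called HSP47, had 17.7, 12.7 and 16.2 CPM in the livers labelled iKO and 14.1, 20.4 and 28.7 CPM in WT livers (adjusted p = 0.253 by edgeR). All 3 overlapped between the groups in CPM. In TPM Bmp1 did not, with at most 56.02 in the livers labelled iKO and at least 58.95 in WT livers. Nor did Plod1, with at most 24.94 and at least 25.07 TPM.

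The 24 members that were not tested reached at most 28 expected counts, or 1.35 CPM, in any library. They included 8 ADAMs, 6 ADAMTS genes, 5 secreted and 2 membrane-bound MMPs and Timp4. The highest count was that of Adamts16, with 5, 8 and 9 expected counts in the livers labelled iKO and 8, 23 and 28 in WT livers. Mmp10 gave 0 counts in all 6 libraries, which allows up to 0.20 CPM in iKO 1, the library with the highest such limit. Among tested members other than Timp3 and Mmp19, exons overlap a gene on the opposite strand for Lox, Loxl2, Mmp24, Loxl3, Mmp7, Mmp11, Mmp12, Adamts7, Adam17, Adam19 and Plod3, of those described above, and reads of such pairs may not be told apart without strand. Loxl3, Plod3 and Adamts14 also had no whole expected count in any library.

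The 12 called members all had the same direction in the 4 libraries with Y-linked reads. Their groups did not overlap in CPM, WT 1 included, so this direction was set beforehand and is no separate check. The single WT liver in these 4 libraries is assumed to vary like the livers labelled iKO. Loxl4 was the one member called there, where 1.05% of all tested genes were called (0.566% lower and 0.485% higher), and the median over the members was -0.04. Mmp24 had a log2 fold change of 1.40 (95% interval 0.64 to 2.15, adjusted p = 0.0888) and P4ha1 of 0.93 (0.16 to 1.70), both at least as large as in all 6 libraries. Adamts1 had -0.92 (-1.73 to -0.10), Adamts13 -1.15 (-2.11 to -0.20) and Mmp15 0.71 (0.03 to 1.40). Timp2, with -0.61 (-1.19 to -0.03), Loxl2, with -0.60 (-1.43 to 0.24), and Timp3, with -0.35 (-1.01 to 0.31), were among the 10 called members whose value was nearer to 0 than in all 6 libraries, all but Mmp24 and P4ha1. Adamts2 had -0.81 (-1.62 to -0.01), Loxl1 -0.95 (-1.94 to 0.03) and Mmp19 -0.56 (-1.17 to 0.06). With all 6 libraries and a term for Y-linked reads, Loxl4 was again the one member called (log2 fold change -4.10, SE 0.30, adjusted p = 0.00114), where 1.40% of all tested genes were called (0.805% lower and 0.593% higher). Which part of the other differences goes with Y-linked reads and which with the label cannot be told apart beyond these values, since the one WT library with such reads is WT 1.

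**Figure D4:**
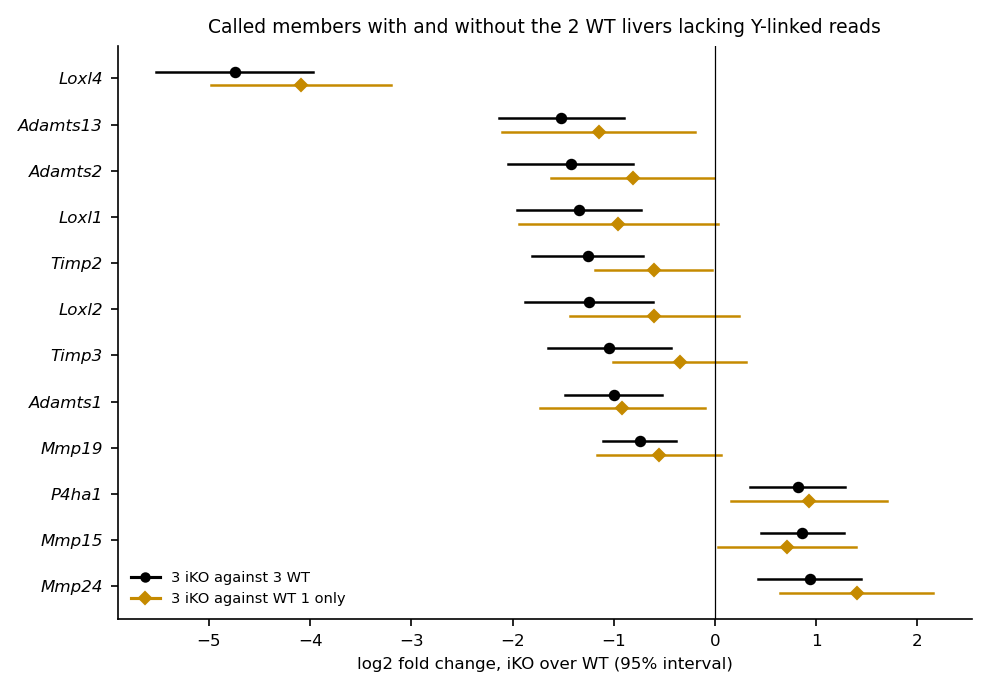
Log2 fold change, livers labelled iKO over WT livers (x axis), with 95% interval, of the 12 called members in all 6 libraries (black) and with the 3 livers labelled iKO set against WT 1 only (gold). Loxl4 is at -4.74 and -4.09, and the gold intervals of Loxl1, Loxl2, Timp3 and Mmp19 include 0.

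Partner genes outside the rule were read from lists of regulators, substrates and further matrix enzymes. Of 101 genes listed 85 were tested, 25 were called lower and 4 higher (all tested genes: 8.07% and 7.31%), and their median log2 fold change was -0.45. With the term for Y-linked reads 2 of these 29 were called, among them Reln, and the median over the 85 was -0.13. All 29 had the same sign, but they were picked by their call in these libraries, so this is no separate check. In the plasminogen system, which activates several MMP proenzymes, Serpine2 rose by 1.41 on the log2 scale (adjusted p = 0.0419 by edgeR). Of 6 tested genes for other inhibitors of matrix enzymes 3 were lower and 1 higher. Reck, a membrane-anchored MMP inhibitor, had 1.27, 1.07 and 0.778 CPM in the livers labelled iKO, against 3.35, 3.51 and 5.27 CPM in WT livers (log2 fold change -1.96, adjusted p = 0.00747 by edgeR). Papln fell by 2.85 and Tfpi2 by 0.78 on the log2 scale, and Rarres1 rose by 1.19.

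Substrates of these enzymes were read as well. Of 6 tested ADAMTS substrates 4 fell, among them Reln (reelin), with 13.6, 13.7 and 9.75 CPM in the livers labelled iKO, against 47.6, 77.3 and 80.0 CPM in WT livers (log2 fold change -2.47, adjusted p = 0.000587 by edgeR). Fbn1 (fibrillin 1) fell by 1.93, Bgn (biglycan) by 1.26 and Dcn (decorin) by 1.13 on the log2 scale. Vwf, the substrate of ADAMTS13, was not called, with 2.53, 5.31 and 0.934 CPM in the livers labelled iKO and 6.90, 10.0 and 8.12 CPM in WT livers (adjusted p = 0.0811 by edgeR). Of the 7 fibrillar collagen and elastin genes, the substrates of lysyl oxidases, Col5a1 was called (log2 fold change -1.66, adjusted p = 0.00496 by edgeR). Col1a1 had 9.19, 13.0 and 33.9 CPM in the livers labelled iKO and 18, 36.3 and 53.9 CPM in WT livers (adjusted p = 0.341 by edgeR). Col3a1 had 15.1, 26.0 and 39.2 CPM in the livers labelled iKO and 40.3, 84.4 and 128 CPM in WT livers, without overlap but not called (adjusted p = 0.0705 by edgeR).

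Of 18 tested genes for collagen folding, glycosylation and crosslinking outside the rule 7 were lower. The 4 with the lowest adjusted p were Fbln5, an elastic fibre protein (log2 fold change -2.41), Pxdn, the peroxidase that crosslinks collagen IV (-1.55), P3h2, a prolyl 3-hydroxylase (-1.88), and Lum, the collagen-binding proteoglycan lumican (-1.75). Of 9 other matrix-degrading enzymes Htra1 fell by 2.13 and the heparanase gene Hpse by 1.39 on the log2 scale. Of 6 convertases and procollagen enhancers Pcolce2 fell by 1.39 on the log2 scale, while Furin, which activates membrane-type MMPs, was not called (log2 fold change 0.16, 95% interval -0.33 to 0.65, adjusted p = 0.652 by edgeR). Of 9 regulators of ADAM10 and ADAM17, Rhbdf1 rose by 0.79, and the tetraspanin genes Tspan15 and Tspan14 fell by 1.12 and 0.50 on the log2 scale. Of 16 ADAM10 and ADAM17 substrates 5 were lower, led by Notch1 (log2 fold change -1.09, adjusted p = 0.0089 by edgeR), Axl (-1.30), Notch2 (-0.84) and Met (-0.94).

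Markers of the cell types known to make these proteins moved with the called members. In bulk liver, fewer cells of a type and less RNA per cell cannot be told apart. The 12 stellate cell markers summed to between 194 and 258 CPM in the livers labelled iKO and between 323 and 579 CPM in WT livers, with 7 called lower. Ecm1, which was not called and overlapped between the groups, gave 151 of the 258 CPM in iKO 1 and 297 of the 579 CPM in WT 3. Lrat, the retinol-esterifying enzyme that marks stellate cells, had 3.33, 3.16 and 3.58 CPM in the livers labelled iKO, against 19.9, 40.8 and 21.7 CPM in WT livers, or 12.2% of WT. The TPM ratio of Loxl4 to Lrat was 0.239, 0.182 and 0.284 in the livers labelled iKO and 0.690, 0.538 and 1.33 in WT livers, without overlap, a pair chosen after its values were seen. The 12 portal fibroblast and myofibroblast markers summed to between 145 and 198 CPM in the livers labelled iKO and between 249 and 458 CPM in WT livers, with 4 lower and 1 higher of 11 tested. Dcn, called lower, gave 83.1 of the 145 CPM in iKO 1 and 164 of the 458 CPM in WT 3. Reln is both a stellate cell marker and an ADAMTS substrate here, and Dcn and the collagens are in the portal fibroblast list and among the substrates.

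The 12 sinusoidal endothelial markers summed to between 82.3 and 175 CPM in the livers labelled iKO and between 201 and 319 CPM in WT livers, with 4 lower. The 12 Kupffer cell and macrophage markers summed to between 372 and 454 CPM in the livers labelled iKO and between 492 and 939 CPM in WT livers, with 6 lower. The 10 neutrophil markers summed to between 19.1 and 47.0 CPM in the livers labelled iKO and between 32.7 and 132 CPM in WT livers, with 5 lower, and overlapped between the groups. In the stellate, portal fibroblast, endothelial and Kupffer lists WT 1 was the lowest WT liver, as it was for the 9 members called lower. No marker of these lists was at 0 in all 6 libraries, and the part of these cell types in the members' values was not tested.

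**Figure D5:**
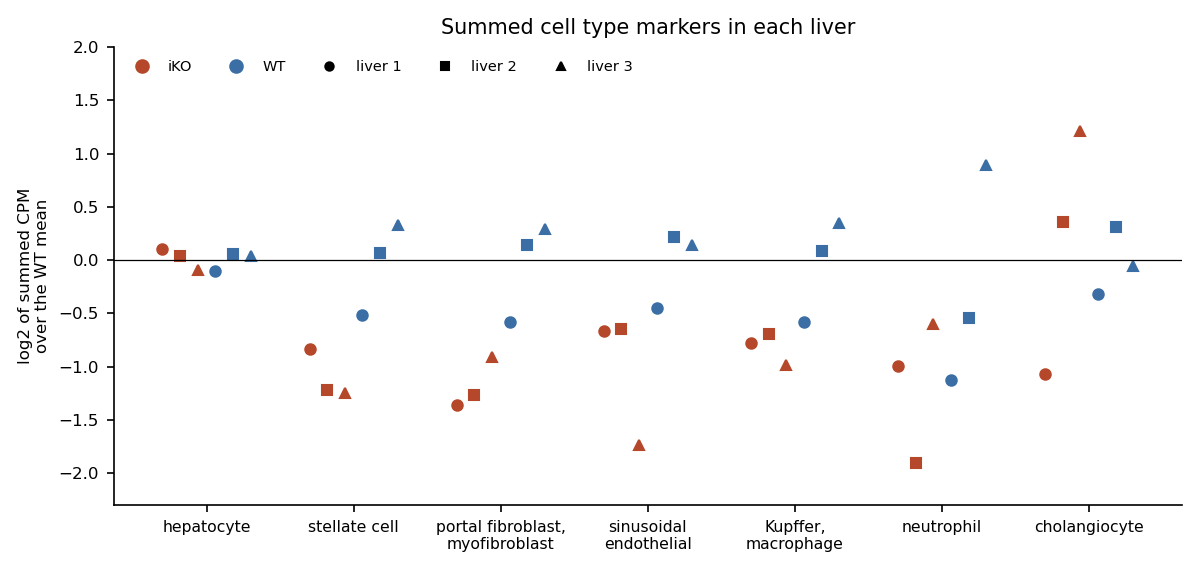
Summed CPM of 7 cell type marker lists in each liver, as log2 over the mean of the WT livers (y axis), those labelled iKO in red and WT in blue. The stellate, portal fibroblast, endothelial and Kupffer sums of all livers labelled iKO lie below those of all WT livers, the hepatocyte sums lie close to 0, and the cholangiocyte sums spread most in the livers labelled iKO.

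Transcript length was not used by the rule. The members' transcripts were long, with a median effective length of 3959 bases over 52 tested members with a length, against 2822 bases over all tested genes. The Spearman correlation of log2 fold change with length was -0.35 over all tested genes and -0.24 over the members. Genes are not independent replicates, and these values describe the libraries. With a correction for length 8 members were called lower and 3 higher, against 5.64% and 5.93% of all tested genes, with Timp3 as the one call lost, and Loxl4 stood at -4.50.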

How the data were processed

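RNA-seq was measured in 6 mouse livers, 3 labelled iKO and 3 labelled WT. The build mm9, RSEM 1.2.12, Bowtie2 2.2.5 and HISAT2 2.0.4 are named per the submitters' processing notes. The authors deposited 1 table with expected counts, FPKM and TPM per library. The deposited expected counts are estimates and need not be whole. In the deposited FPKM values, depth and transcript length are divided out. The deposited TPM values are scaled to a common total. Expected counts were rounded and tested in R 4.3.3 by the robust quasi-likelihood test of edgeR 4.0.16, after filterByExpr and with TMM factors. P-values were adjusted by Benjamini-Hochberg over 13160 genes, at a threshold of 0.05. Each SE is the size of the log2 fold change divided by the root of its F statistic.

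The members, gene lists and alternatives were chosen with earlier results of these data known. Named by rule were Nek7, called members with a mean of at least 1 CPM, the uncalled member with the highest CPM in each role, and up to 4 called genes per partner list. Other genes named were chosen after their values were seen, and 1 partner gene is not reported here. A library counted as holding Y-linked reads from 10 counts of Ddx3y and Kdm5d together upward. Counts of "not whole" use a tolerance of 0.001. Alternatives used DESeq2 1.42.0, limma 3.58.1 on log2(FPKM + 1) and log2(FPKM + 0.1), RLE and upper-quartile factors, no filter, a replicate block, a length correction (lowess, span 0.3, FPKM of at least 0.2), Y-linked terms and leaving out each library. Promoter windows are from RefSeq (GRCm38.p6) and overlapping exons from GENCODE. The fits were tested on simulated data. No mm9 genome was used here, so no coordinates of the counted genes are given. Limits from a count of 0 and precision at low counts cover counting error only.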

Additional observations from a re-analysis of the deposited data

How the results depend on the processing

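The 9 lower and 3 higher members were called alike with RLE and upper-quartile factors, without the filter and with DESeq2, which each called all 12, with Adamtsl3 gained without the filter and Adamts7 with DESeq2. On FPKM values, limma called 0 members higher on either FPKM scale, with a member median of -0.24 for log2(FPKM + 1). With the term for Y-linked reads 1 member was called lower and 0 higher, with 184 genes over the whole table and a member median of -0.0443. In the libraries with Y-linked reads only, these were 1, 0, 143 and -0.0424. Mmp14 turned to 0.0413 and 0.0443. In both of these fits the livers labelled iKO are set against WT 1, so they are not separate checks.

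The replicate number as a block gave 10 members lower and 2 higher, 1710 genes and a median of -0.58, with P4ha1 lost (adjusted p = 0.0555) and Adam9 gained (0.0483, both edgeR). Deviations of same-numbered livers correlated at 0.207, 0.218 and 0.0458, and iKO 3 correlated better with WT 2 (0.334), so the numbers were not taken as pairs. The block with the length correction gave 6 members lower and 3 higher, without Adamts1, Timp3 and Mmp19, and 1224 genes.

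Leaving out 1 library gave 2 to 14 members lower, 0 to 4 higher, 491 to 1840 genes and medians of -0.74 to -0.43. The lowest counts came without WT 2. Some uncalled members near 0 changed sign. Adam11 was -0.0606 and -0.0685 and Adamtsl2 -0.0394 and -0.0421 on the FPKM scales, and Bmp1 was 0.15 with the length correction and 0.13 with block and length. With 1 library left out Adam11 ranged from -0.14 to 0.42, Adamtsl2 from -0.0113 to 0.38, Bmp1 from -0.18 to 0.0878, Mmp7 from -0.0056 to 2.03 and Timp1 from -0.54 to 1.73. Of the values of named members under alternatives, 259 had the same direction and side of the threshold, 63 were no longer called, 1 became called and 17 changed sign. The causes were not tested. Members near 1 CPM are limited by depth.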
